A study of Mus musculus with 101 samples.

Results

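Genomic imprinting restricts a small set of mammalian genes to the copy inherited from the mother or to the copy inherited from the father. The mark that separates the copies is DNA methylation at control regions, and primordial germ cells (PGCs) are the cells in which these marks are removed before new ones are laid down according to the sex of the embryo. Many imprinted genes act on fetal growth, with paternally expressed genes such as Igf2 known to promote it and maternally expressed genes such as Cdkn1c and Grb10 known to restrain it. Levels of 36 imprinted genes chosen by name were examined in PGC libraries of mouse embryos at embryonic day E13.5. Of these genes, 32 were among the 15423 genes of the table, and Mirg, Airn, Magel2 and Peg10 were not analysed here. The 15 maternally expressed genes left 14 in the table, the 20 paternally expressed genes left 17, and Gnas, which has transcripts of both kinds, was the remaining gene. A mean of at least 0.5 normalized counts over all embryos was reached by 29 genes, and Rian, Zim1 and Peg13 lay under it.

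The libraries came from the gonads of 48 female and 53 male embryos of 56 dams, with 1 library per embryo. All mice were OG2, a line in which EGFP is driven by the Pou5f1 promoter, and EGFP-positive cells were isolated by FACS, so that any cell carrying the reporter could enter a library. Pregnant F0 females were given benzo[a]pyrene (BaP), a polycyclic aromatic hydrocarbon, by mouth, or the sesame oil vehicle. The daily dose per kg of body weight was 0.033 mg (low), 0.2 mg (middle) or 2 mg (high). Dosing ran from E6.5 to E11.5 for F1 embryos and from E6.5 to E15.5 for the ancestors of F2 and F3 embryos, so F1 differs from the later generations also in the dosing window. Vehicle embryos numbered 5 per sex in F1, 6 per sex in F2 and 6 per sex in F3. At the low, middle and high dose there were 2, 5 and 5 females with 2, 6 and 8 males in F1, 3 of each sex at every dose in F2, and 4, 2 and 4 females with 4, 4 and 3 males in F3.

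Values are counts of reads on exons that had been normalized between libraries by the TMM method, called normalized counts below, and their sum per embryo ran from 758171 to 1594837. The whole reads behind them could be recovered in 99 embryos and numbered 5004382 to 87240533 per embryo, with a median of 7789673. One read was therefore worth between 0.00959 and 0.238 normalized counts, so that values near 1 normalized count rest on a few reads in the shallow libraries and on many more in the deep ones. The cDNA was primed with oligo(dT) and carries no strand information, so reads of Kcnq1ot1 and the Kcnq1 gene around it, of Nnat and the Blcap gene around it, and of Gnas and its antisense transcript cannot be told apart. Parental alleles and DNA methylation were not analysed here, so a level is the sum over both copies.

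All 10 germ cell markers, among them Ddx4, Dazl and Dppa3, were expressed in the libraries. Their summed level was 3932 ± 486 normalized counts (SD, n = 17) in vehicle females and 4167 ± 672 in vehicle males, with Dppa3 the most abundant. The 11 measured stroma and mesonephros markers summed to 2.65 ± 4.63 in vehicle females and 6.90 ± 10.9 in vehicle males, and Col1a1, Postn and Mgp had a median of 0 in females, Tcf21 and Mgp in males. All of the 7 Sertoli cell markers were higher in males, where they summed to 675 ± 351 with Cst9 the most abundant, against 21.8 ± 6.71 in females, where Sox9, Amh, Dhh and Mro had a median of 0. In these sorted pools fewer cells of a type and less RNA per cell cannot be told apart. Some libraries stood apart. The stroma markers summed to 57.5 in F3 female D3744.1 at 0.033 mg/kg-day, 48.5 in F3 vehicle male D1388.1 and 20.3 in F3 vehicle female D1388.3, each above every other embryo. The erythroid markers summed to 5419 in male D1388.1, the highest of all embryos. A male of F3 at the middle dose, D1390.5, had the female-high genes Phlda2 and Slc22a18 far above the other males, as described with the exposure groups, and whether it held cells of another embryo or bore a wrong label was not tested.

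Imprinted genes covered a wide range of levels in E13.5 PGCs. Per kb of exon, the highest mean over all embryos was that of Phlda2, a maternally expressed gene known to limit placental growth, at 547.6 normalized counts per kb. It was followed by Snrpn, a paternally expressed gene for a spliceosomal protein, at 241 per kb. Cdkn1c, the gene of the cell cycle inhibitor p57, lay at 14.8 per kb. Slc22a18, a membrane transporter gene, lay at 12.6 per kb, and Blcap, a gene of a small membrane protein, at 8.33 per kb. The lowest levels per kb belonged to the noncoding RNAs Rian at 0.0163, Kcnq1ot1 at 0.0476, Peg13 at 0.0487 and Meg3 at 0.0957, and to the zinc finger gene Zim1 at 0.0344. Apart from Zim1, the genes at the low end per kb do not code for protein, but this order depends on the exon length used as divisor. Kcnq1ot1 has 93092 exon bases, and its mean of 4.43 normalized counts lay above the 4.37 of the coding gene Igf2. Rian, Zim1 and Peg13 lay under a mean of 0.5 without that division. The order differed between the sexes, since in vehicle females Phlda2 (957.9 per kb) was followed by Snrpn (194.7), Slc22a18 (25.2) and Cdkn1c (20.4). In vehicle males Snrpn (266.9 per kb) was followed by Cdkn1c (12.2), Phlda2 (10.2) and Blcap (8.74), and Slc22a18 lay at 0.532. Among vehicle embryos, the median level per kb of the 14 maternally expressed genes was 1.82 in females and 0.749 in males, and that of the 17 paternally expressed genes was 1.15 in females and 0.652 in males.

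Rian was at 0 in 3 females and 10 males, and its highest value in any embryo was 2.12 normalized counts. Zim1 ranged from 0 to 1.29 in females and from 0 to 0.64 in males. Peg13 had a median of 0 in females and of 0.279 in males, with a highest value of 1.74. These 3 genes were left out of the tests across genes because of their low level, and both sexes overlapped for each of them.

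The largest division among the imprinted genes was that between the sexes. In vehicle embryos of all generations, 17 males and 17 females, 18 of the 29 genes tested differed between the sexes at an adjusted p under 0.05 (limma), which is 62.1% of them, while 56.5% of all 13288 genes tested did so. Of the 18, 6 were higher in males, where the share over all genes was 27.9%, and 12 were higher in females, where it was 28.6%. The share of imprinted genes that differed was thus near that of all genes. Among the 12 maternally expressed genes tested, 1 was higher in males and 7 were higher in females. The 16 paternally expressed genes split into 5 male-high, 4 female-high and 7 without a call. The median log2 fold change of males minus females was -0.41 over the maternally expressed genes, 0.00 over the paternally expressed genes and 0.00 over all genes. The median size of the change, without its sign, was 0.72 for maternally expressed, 0.46 for paternally expressed and 0.39 for all genes. Fold changes were taken after 0.5 was added to each value, which makes those of low genes smaller.

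**Figure D1:**
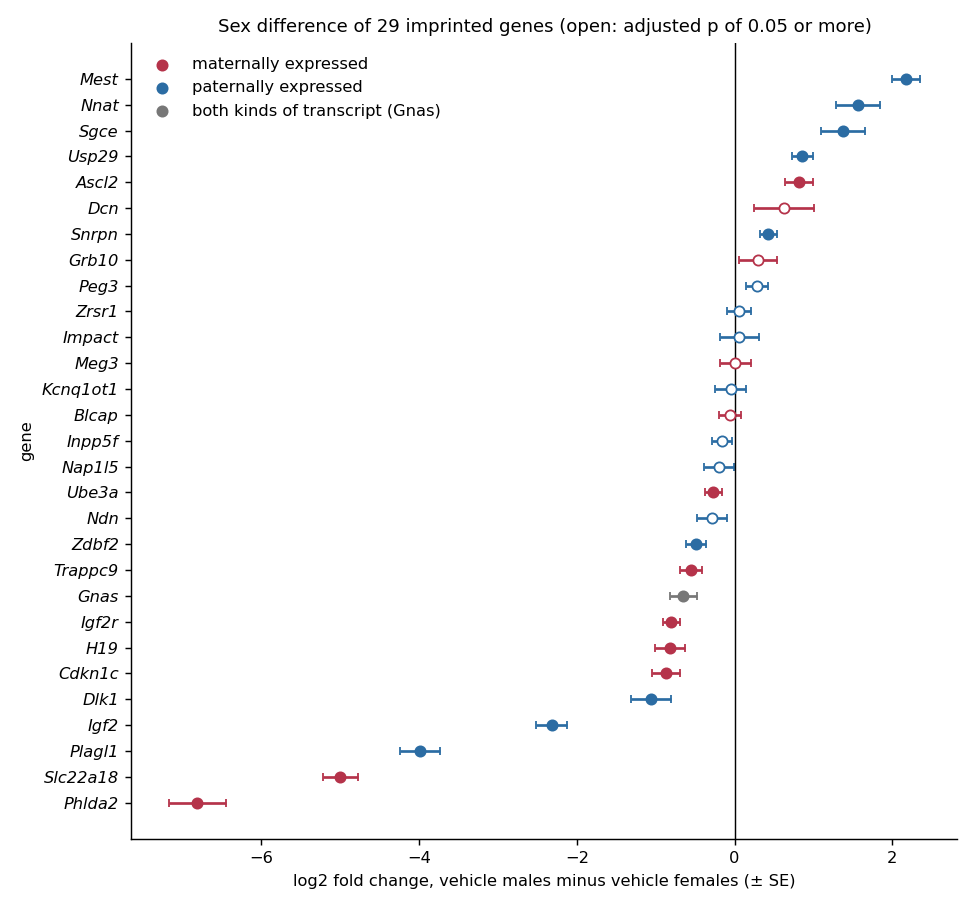
Log2 fold change of vehicle males minus vehicle females (17 each, horizontal axis) for the 29 tested imprinted genes, with standard errors as bars, coloured by the parental copy known to be expressed; filled points had an adjusted p under 0.05. Phlda2 at -6.81 and Slc22a18 at -5.00 lie at the female end and Mest at 2.17 at the male end.

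Phlda2 (GRCm38 chromosome 7, 143501545 to 143503150, minus strand) had the largest sex difference. In vehicle females it ranged from 568 to 1679 normalized counts with a median of 1029, and in vehicle males from 3.10 to 41.3 with a median of 8.11. Every vehicle female lay above every vehicle male. The means were 1074 ± 341 (SD, n = 17) and 11.4 ± 10.7, a ratio of 94.2, and the log2 fold change was -6.81 (SE 0.36, adjusted p = 1.28e-32). Slc22a18, its neighbour on the opposite strand (143473736 to 143499334), ranged from 30.6 to 65.6 in vehicle females with a median of 42.4. In vehicle males it ranged from 0.293 to 1.82 with a median of 0.920, values that rest on 2 to 138 reads. The groups did not overlap, the ratio of the means was 47.4 and the log2 fold change was -5.00 (SE 0.22, adjusted p = 5.05e-39). Over embryos of all doses, 52 of 53 males lay below every female for both genes, and the exception was the F3 male D1390.5.

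Plagl1, a paternally expressed gene for a zinc finger transcription factor that can arrest the cell cycle (chromosome 10, 13060504 to 13131694), was high in females as well. It ranged from 17.5 to 53.5 normalized counts with a median of 28.4 in vehicle females. In vehicle males it ranged from 0.107 to 12.8 with a median of 1.04, and the highest male was F1 embryo C3774.3. Females and males did not overlap, neither among vehicle embryos nor over embryos of all doses, and the log2 fold change was -3.99 (SE 0.25, adjusted p = 6.6e-27). For Phlda2, Slc22a18 and Plagl1 alike, every vehicle female thus lay above every vehicle male.

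The paternally expressed growth factor gene Igf2 ranged from 5.76 to 11.2 normalized counts with a median of 7.91 in vehicle females, and from 0.156 to 4.57 with a median of 1.20 in vehicle males. The vehicle groups did not overlap, and the log2 fold change was -2.32 (SE 0.20, adjusted p = 4.6e-19). Over all doses the sexes overlapped for Igf2, with 45 of 48 females above every male and F3 female D1464.1 at 2.24. The receptor that clears IGF2 is encoded by the maternally expressed Igf2r. It ranged from 12.6 to 18.5 with a median of 14.2 in vehicle females and from 5.34 to 12.7 with a median of 8.38 in vehicle males (log2 fold change -0.80, SE 0.11, adjusted p = 2.27e-10). For Igf2r, 16 of 17 vehicle females lay above every male. The maternally expressed noncoding RNA H19, which shares enhancers with Igf2, ranged from 3.23 to 10.9 with a median of 6.93 in vehicle females and from 1.61 to 11.3 with a median of 3.93 in vehicle males. Its groups overlapped, with male D1388.1 above all females, and the log2 fold change was -0.82 (SE 0.19, adjusted p = 9.65e-05). Igf2, H19 and Igf2r thus moved in the same direction although the copies that are expressed in the soma come from different parents.

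Mest, a paternally expressed gene for a hydrolase-like protein (chromosome 6, 30723547 to 30748465), was by log2 fold change the most male-biased of the tested imprinted genes. It ranged from 2.04 to 7.43 normalized counts with a median of 4.70 in vehicle females and from 11.5 to 37.9 with a median of 21.6 in vehicle males. The groups did not overlap, and the log2 fold change was 2.17 (SE 0.18, adjusted p = 3.7e-20). By the ratio of the means, male over female, Nnat at 6.51 lay above Mest at 4.86. Without overlap between the vehicle sexes there were thus 4 imprinted genes with all females above (Phlda2, Slc22a18, Plagl1 and Igf2) and 1 with all males above (Mest). Over all genes tested these shares were 2.24% and 2.21%. Over embryos of all doses, 25 of 53 males had more Mest than any female, and 45 of 48 females had less than any male. The count of 25 was set by stroma-rich F3 female D3744.1 at 23.2 normalized counts. The highest of the other females was at 12.2, and most males lay above it.

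**Figure D2:**
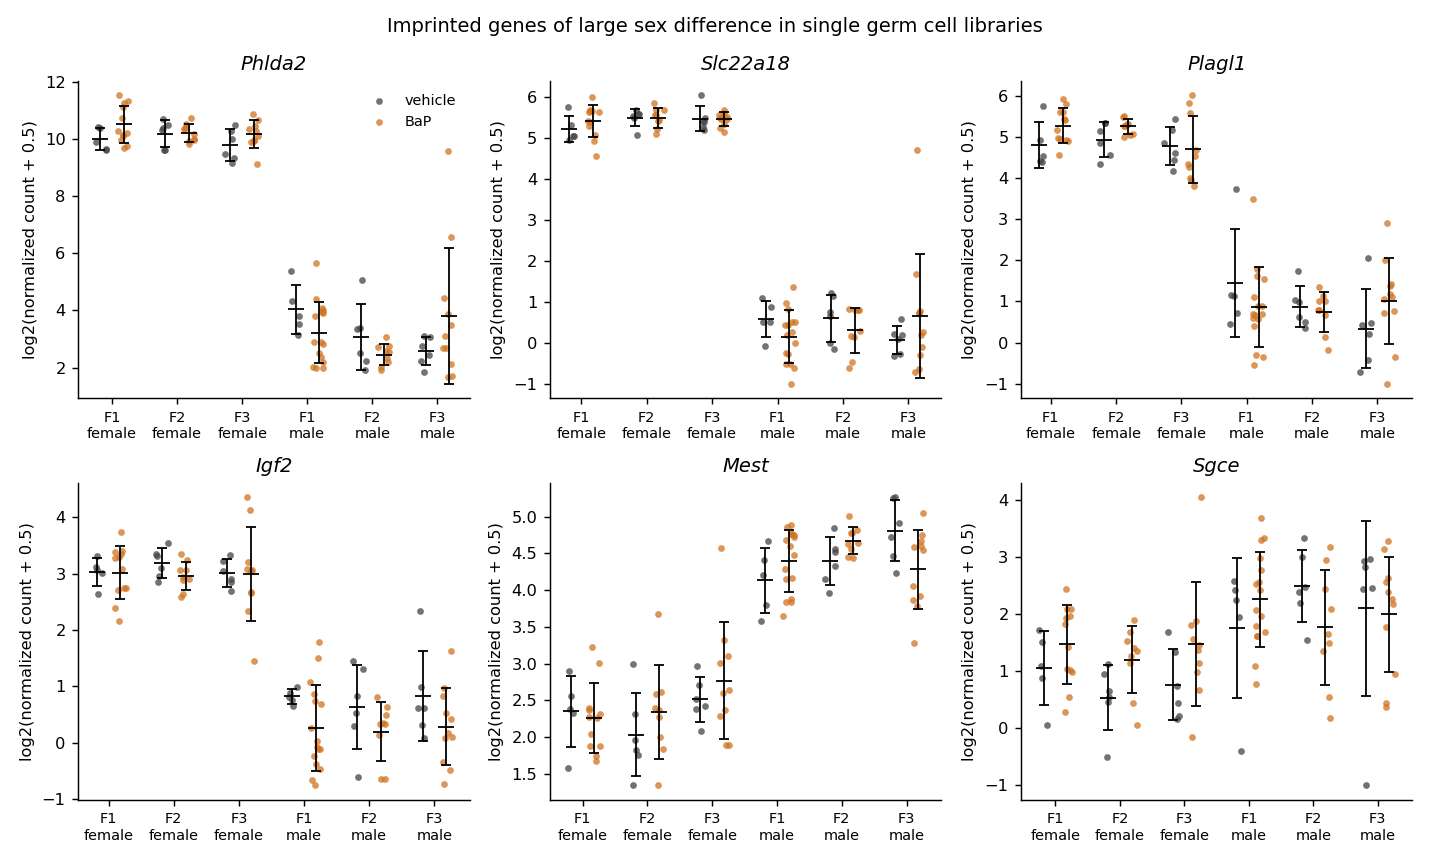
Log2(normalized count + 0.5) of 6 imprinted genes in each embryo, by generation and sex, with grey points for vehicle and orange points for BaP embryos and bars for the mean and SD. Phlda2, Slc22a18, Plagl1 and Igf2 are high in females and Mest in males, and the F3 male with 775 normalized counts of Phlda2 stands apart.

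Other paternally expressed genes were also higher in males, with overlap between the sexes. Usp29, a gene of the ubiquitin peptidase family that shares its promoter region with Peg3, had a median of 3.79 normalized counts (2.32 to 7.23) in vehicle females and 7.26 (4.99 to 13.8) in vehicle males. Its log2 fold change was 0.86 (SE 0.13, adjusted p = 2.51e-08), and 9 males lay above every female. Nnat, known from the nervous system as neuronatin, had a median of 0.245 (0 to 1.36) in females and 1.80 (0.065 to 7.11) in males, with a log2 fold change of 1.56 (SE 0.28, adjusted p = 7.78e-07). Sgce, the gene of epsilon-sarcoglycan, had a median of 1.18 (0.207 to 2.78) in females and 4.93 (0 to 9.51) in males, with a log2 fold change of 1.37 (SE 0.28, adjusted p = 1.61e-05). For Sgce 14 of 17 males lay above every female, while F3 vehicle male D3523.1 was at 0. With the Sertoli marker level as a term, a fit chosen after the data had been seen, the direction of Sgce turned (-2.12, adjusted p = 6.64e-06) and Nnat was no longer called (-0.14, adjusted p = 0.858). Snrpn had a median of 440.5 (306 to 534) in females and 559 (317 to 1074) in males, and its log2 fold change was 0.43 (SE 0.11, adjusted p = 0.000609). The single maternally expressed gene that was higher in males was Ascl2, a transcription factor gene known for its role in the placental spongiotrophoblast. Its median was 5.52 (3.40 to 7.54) in females and 9.45 (5.65 to 17.1) in males, with a log2 fold change of 0.82 (SE 0.18, adjusted p = 3.49e-05).

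The remaining female-biased genes had smaller differences and overlapped between the sexes. Cdkn1c had a median of 40.6 normalized counts (26.9 to 67.0) in vehicle females and 19.9 (7.21 to 63.4) in vehicle males, with a log2 fold change of -0.87 (SE 0.18, adjusted p = 2.32e-05). Dlk1, a paternally expressed membrane protein related to Notch ligands, had a median of 3.05 (1.10 to 12.8) in females and 1.36 (0.369 to 8.88) in males, with a log2 fold change of -1.06 (SE 0.25, adjusted p = 0.000153). Gnas, the gene of the stimulatory G protein alpha subunit and of further imprinted transcripts, had a median of 105 (51.3 to 181) in females and 63.3 (34.7 to 96.2) in males. Its log2 fold change was -0.65 (SE 0.17, adjusted p = 0.000457), and 10 females lay above every male. Zdbf2, a paternally expressed gene of a zinc finger protein, had a median of 11.1 (4.66 to 19.2) in females and 8.5 (5.39 to 11.7) in males (log2 fold change -0.49, SE 0.13, adjusted p = 0.000572). Trappc9, a gene of a vesicle trafficking complex, had a median of 6.32 (5.49 to 9.58) in females and 4.79 (1.67 to 8.27) in males (log2 fold change -0.55, SE 0.14, adjusted p = 0.000704). Ube3a, the gene of an E3 ubiquitin ligase whose maternal bias is known from neurons, had a median of 42.6 (30.0 to 62.1) in females and 34.9 (19.8 to 95.3) in males. Its log2 fold change was -0.27 (SE 0.11, adjusted p = 0.0326), and with edgeR's quasi-likelihood test on the recovered reads the adjusted p was 0.0688.

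The other 11 tested genes did not pass the test between the vehicle sexes, with log2 fold changes from -0.28 to 0.63. They were the maternally expressed Dcn, Grb10, Blcap and Meg3 and the paternally expressed Peg3, Ndn, Inpp5f, Nap1l5, Zrsr1, Kcnq1ot1 and Impact. With the dam as a block Peg3 was called as higher in males (0.28, adjusted p = 0.0409), as it was with the stroma marker term (0.33, adjusted p = 0.0429). With the Sertoli marker term Peg3 (1.01, adjusted p = 0.00207) and Ndn (-0.99, adjusted p = 0.0261) were called, as were Grb10 and Blcap. Among the genes of extreme level per kb, Blcap had a log2 fold change of -0.06 (SE 0.14, adjusted p = 0.755), with medians of 24.3 normalized counts (18.8 to 47.1) in females and 24 (15.2 to 54.9) in males. Kcnq1ot1, the noncoding RNA known to silence its neighbours on the paternal copy, had medians of 4.38 (2.14 to 11.5) and 4.39 (1.76 to 19.3), with a log2 fold change of -0.05 (SE 0.20, adjusted p = 0.852). Meg3 had medians of 1.72 (0.501 to 3.72) and 1.52 (0.240 to 6.78), with a log2 fold change of 0.01 (SE 0.20, adjusted p = 0.975). The sexes overlapped almost fully for these 3 genes. Decorin (Dcn), an extracellular proteoglycan gene imprinted in the placenta, had medians of 0.361 in females and 0.705 in males, and its highest values of 44.3 in male D1388.1 and 14.2 in female D1388.3 came from libraries of high stroma marker level. It was called with edgeR's quasi-likelihood test (log2 fold change 2.98, adjusted p = 0.000107), a test that held male D1388.1 and did not hold female D1388.3, whose reads were not recovered.

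The sexes were also compared within each generation, which uses 5 or 6 embryos of each sex. In F1, 10 of 29 imprinted genes differed, against 23.8% of all genes, in F2 13, against 41.1%, and in F3 14, against 32.2%. Phlda2, Slc22a18, Plagl1, Igf2, Igf2r, Cdkn1c and Mest were called in each of the 3 generations, and 17 genes were called in at least 1. That is 24.1% and 58.6% of the 29, and of all genes tested in each generation 18.4% and 48% were called so. For Phlda2 the log2 fold change was -5.96 (SE 0.50) in F1, -7.12 (SE 0.32) in F2 and -7.22 in F3. For Slc22a18 it was -4.65 in F1, -4.90 in F2 and -5.40 in F3, and for Mest 1.78, 2.36 and 2.30. The directions of these 7 genes were thus the same in every generation. Ascl2, Nnat, Sgce and Usp29 were called in F2 and F3 and not in F1, but with the dam as a block Ascl2 (adjusted p = 0.0281), Nnat (0.00784) and Usp29 (0.0329) were called in F1 as well. The F3 call of Sgce (adjusted p = 0.0468) was lost with a pseudocount of 0.1 (0.173) or the stroma marker term (0.101). That of Ascl2 was lost without the embryos of high stroma marker level (0.77, adjusted p = 0.0829). In F1 Sgce was gained without C3774.3 (log2 fold change 1.25, adjusted p = 0.0233). With the Sertoli marker term Sgce was higher in females in F1 (-2.06, adjusted p = 0.00713) and not called in F2 (-0.74, adjusted p = 0.638). With that term Ascl2 (1.07 in F2, 1.35 in F3), Usp29 (1.53, 1.05) and Nnat (-0.77, 0.66) were called in neither F2 nor F3. The difference itself between generations was not past the threshold for any imprinted gene. In 87 tests of that difference 0 were called with limma, 1 had an unadjusted p under 0.05 (Ube3a, F3 minus F1, log2 difference 0.60, SE 0.28) and 0% of all genes were called in each of the 3 contrasts; edgeR's tests of this difference called 0 as well. The call of Cdkn1c was lost in F1 and in F3 with several other settings, for example at an adjusted p of 0.225 in F1 and 0.215 in F3 with the quasi-likelihood test. With the Sertoli marker term Igf2 (adjusted p = 0.206), Igf2r (0.477) and Mest (0.103) were not called in F3 either. Their log2 fold changes there stayed near those without the term, at -2.03 after -2.19 for Igf2, -0.63 after -0.61 for Igf2r and 2.24 after 2.30 for Mest.

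A stretch of distal chromosome 7 holds both the Igf2 and H19 cluster and the Kcnq1 cluster, and genes there were taken by their coordinates after the values had been seen. Between 142441808 and 143848410 the table held 26 genes, of which 22 were tested and 7 belong to the imprinted genes above. In this stretch 10 genes were female-high and 6 male-high among vehicle embryos. Among the 15 tested genes outside the list, 5 were higher in females and 5 in males, where the shares over all genes were 28.6% and 27.9%. Several of these 15, namely Ins2, Th, Tspan32, Cd81, Tssc4, Nap1l4 and Dhcr7, belong to the other imprinted genes examined below. At the proximal end Tnnt3 (-3.55), Lsp1 (-2.23), Tnni2 (-1.88) and Ins2 (-2.75) were higher in females together with Igf2, while Mrpl23 between Tnnt3 and H19 had a log2 fold change of 0.03. In the middle Th (1.30), Tspan32 (2.75), R74862 (0.90) and Cd81 (0.80) were higher in males together with Ascl2. At the distal end Slc22a18 and Phlda2 lie 2210 bases apart, and the genes on either side had far smaller changes, with -0.87 for Cdkn1c, which lies 12685 bases from Slc22a18, and -0.18 (SE 0.12, adjusted p = 0.219) for Nap1l4, which lies 10428 bases from Phlda2. The steep sex difference of this pair thus did not extend to the next gene on either side at the same size.

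**Figure D3:**
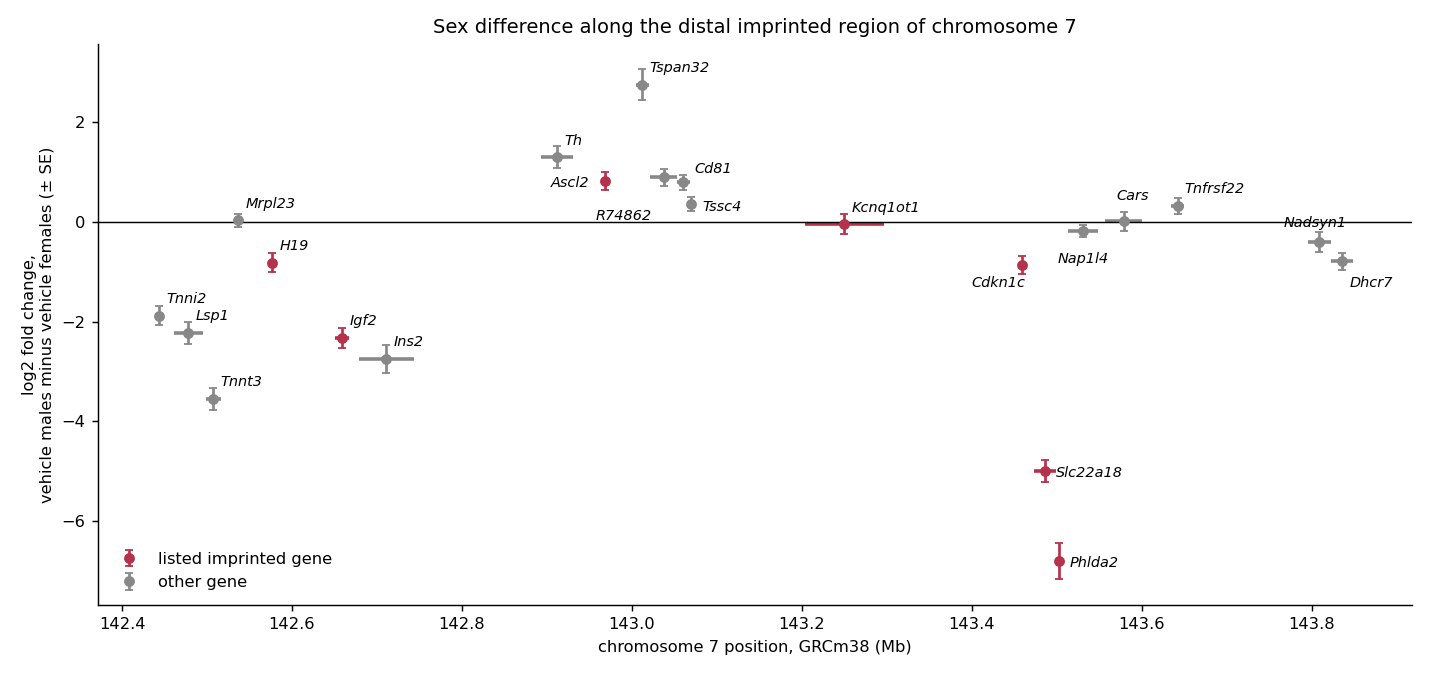
Log2 fold change of vehicle males minus vehicle females (17 each, with standard errors) for 22 genes against their position on GRCm38 chromosome 7 in Mb, with listed imprinted genes in red. Female-high genes lie around Igf2 at -2.32, male-high genes around Ascl2 at 0.82, and Slc22a18 at -5.00 and Phlda2 at -6.81 stand next to Nap1l4 at -0.18.

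Other genes known to be imprinted and genes that set or protect imprints were examined by list. Of 50 other imprinted genes, 40 were in the table and 32 were tested, with 10 higher in males and 10 higher in females, a median log2 fold change of 0.06 and a median size of 0.47, beside shares of 27.9% and 28.6% over all genes. The smallest p-values belonged to Ins2 (-2.75), Tspan32 (2.75), the amino acid transporter gene Slc38a4 (-2.22), Pon2 (0.89) and Ddc (-1.09). Of 24 regulators, 22 were in the table and 21 were tested, with 9 higher in males and 2 higher in females (27.9% and 28.6% over all genes) and a median log2 fold change of 0.31. Those with the smallest p were Arid4a (1.10, SE 0.12), the DNA dioxygenase gene Tet1 (0.84, SE 0.13), Dppa3 (0.57, SE 0.12), known to shield maternal methylation in the zygote, the insulator protein gene Ctcf (0.53, SE 0.12) and Trim28 (0.48, SE 0.11), whose product is recruited by ZFP57. These 5 regulators were all higher in males, with medians of 14.6 and 35.1 normalized counts for Arid4a in vehicle females and males and of 22.2 and 41.1 for Tet1.

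Several imprinted genes followed the level of somatic markers among embryos of 1 sex. In males, the mean log2 level of the 7 Sertoli markers was compared with each of the 29 genes over 50 litters, a set of relations chosen after the data had been seen. Sgce had the closest relation, with a Pearson r of 0.885 and a Spearman rho of 0.874, each with a permutation p of 1e-05, the smallest that 100000 resamples can give (adjusted p = 9.67e-05). The r of Sgce was 0.857 without the 2 farthest litters and 0.919, 0.858 and 0.922 within F1, F2 and F3. Grb10, an adaptor gene that damps insulin and growth factor signalling, had an r of 0.751 and a rho of 0.735 (permutation p = 1e-05, adjusted p = 9.67e-05), and Gnas an r of 0.622 and a rho of 0.666 (the same p-values), with 0.511, 0.929 and 0.827 for Grb10 and 0.773, 0.623 and 0.450 for Gnas within the generations. In all 13 of the 29 relations passed the adjusted threshold, 9 of them positive, and Blcap (-0.488), Peg3 (-0.456), Usp29 (-0.379) and Slc22a18 (-0.352) were negative. Of all genes other than the markers, 18.9% had an r at least as far from 0 as the smallest of the 13 (0.352), and 10.2% a positive one. By rho, 11 of these 13 passed as well, and Slc22a18 (adjusted p = 0.0513 for rho) and Ndn (0.150) did not. Ndn was also the single gene of the 13 without an unadjusted permutation p under 0.05 when the 2 farthest litters were left out (r = 0.260, permutation p = 0.0761). Phlda2 had an r of -0.165 (permutation p = 0.249) and Mest of -0.121 (permutation p = 0.402).

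**Figure D4:**
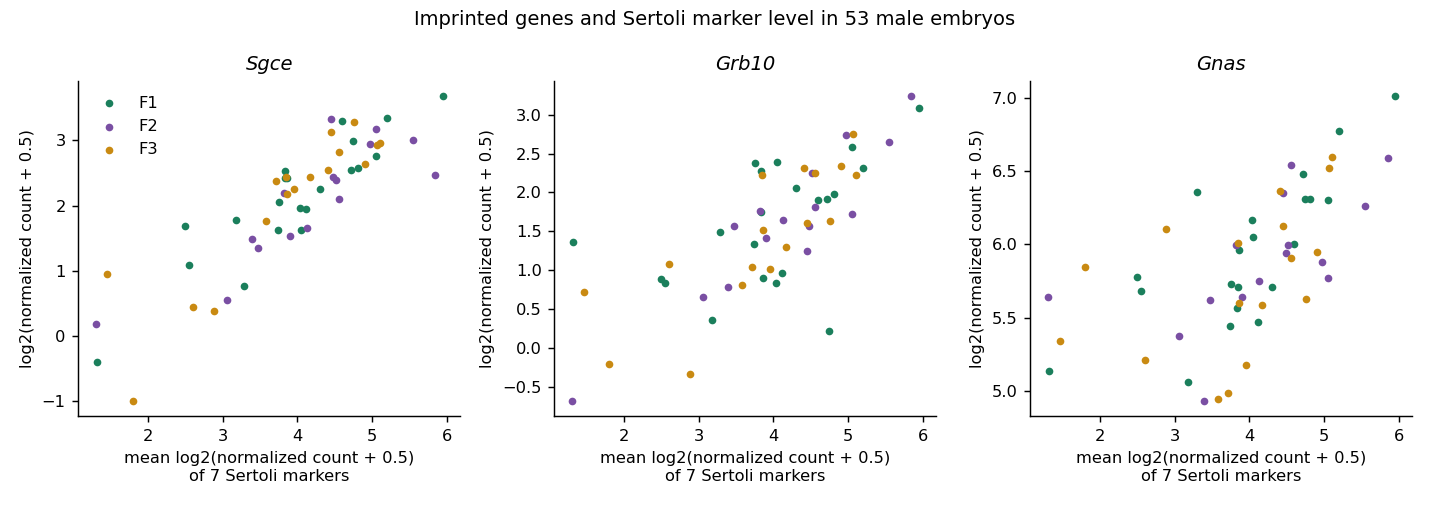
Log2(normalized count + 0.5) of Sgce, Grb10 and Gnas against the mean log2 level of 7 Sertoli markers in 53 male embryos, coloured by generation; each point is an embryo. The embryos rise together in each panel, with an r over litters of 0.885 for Sgce, 0.751 for Grb10 and 0.622 for Gnas.

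With the Sertoli marker level added as a term to the comparison of the sexes, the log2 fold change of Grb10, 0.30 and not called without it, was -2.19. With the same term it was -5.78 for Phlda2, -3.66 for Slc22a18, -3.90 for Plagl1, -2.35 for Igf2 and 2.12 for Mest. It lay further from 0 with the term for Gnas (-1.88 after -0.65), Dlk1 (-2.39 after -1.06) and Trappc9 (-1.42 after -0.55). The same held for H19 (-1.60 after -0.82), Cdkn1c (-1.40 after -0.87) and Zdbf2 (-0.82 after -0.49). The marker level itself differs between the sexes, so this fit and the sex difference cannot be fully told apart.

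The stroma marker level was likewise compared with the 29 genes in each sex, 58 relations in all over 48 litters with females and 50 with males. In females 6 genes passed the adjusted threshold by r and 5 by rho, and the highest r was that of Nnat at 0.745 (rho 0.522, permutation p = 2e-05 and 0.00018, adjusted p = 0.00029), with 0.390, 0.748 and 0.879 within F1, F2 and F3. Sgce followed at 0.702 and Dcn at 0.681 (each with a permutation p of 1e-05 and an adjusted p of 0.00029). Mest at 0.571 (rho 0.039) and H19 at 0.559 (rho 0.152) rested on the 2 farthest litters, since r without them was 0.282 and 0.112, and Grb10 lay at 0.451. In males 5 genes passed by r and 12 by rho, with an r for Dcn at 0.758, Dlk1 at 0.629, Igf2 at 0.5, H19 at 0.483 and Grb10 at 0.429. Dcn kept an r of 0.416 in females and 0.462 in males without the 2 farthest litters. All 11 relations that passed by r were positive, while by rho alone Blcap in males (rho -0.407, adjusted p = 0.0185) and Trappc9 in females (rho -0.429, adjusted p = 0.0179) passed as negative ones. Of all genes other than the markers, 2.12% in females and 0.79% in males had an r at least as far from 0 as the smallest that passed (0.451 and 0.429), and for rho the shares were 1.81% and 14.6%. The 3 libraries of highest stroma level took part in them, and the stroma-rich female D3744.1 had the highest value of any female for H19 (45.7 normalized counts), Nnat (11.9), Sgce (16.0) and Dcn (19.9).

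Imprinted neighbours were also compared with one another. Of 20 relations, 10 pairs in each sex, 7 passed the adjusted threshold for r and rho; how often other pairs of genes would do so was not tested. Usp29 and Peg3, which are transcribed in opposite directions from adjoining starts, were positively related in females (r = 0.412, rho = 0.414, permutation p = 0.0035, adjusted p = 0.0117) and in males (r = 0.519, rho = 0.513, permutation p = 9e-05, adjusted p = 0.0018). Within F1, F2 and F3 the r of this pair was 0.442, 0.582 and 0.268 in females and 0.432, 0.531 and 0.621 in males. Cdkn1c and Phlda2, both maternally expressed members of the Kcnq1 cluster, were negatively related in females (r = -0.489, rho = -0.457, permutation p = 0.00032, adjusted p = 0.0032) and in males (r = -0.467, rho = -0.484, permutation p = 0.0009, adjusted p = 0.006). Within the generations the r of this pair was -0.657, -0.274 and -0.405 in females and -0.537, -0.682 and -0.408 in males. H19 and Igf2 were related in males (r = 0.445, adjusted p = 0.006) and did not pass in females (r = 0.292, adjusted p = 0.0986). Meg3 and Dlk1 were related in males (r = 0.430, adjusted p = 0.00784), with -0.134 in females. In males both genes also followed the Sertoli markers (r = 0.374 for Meg3 and 0.423 for Dlk1), and their relation apart from these markers was not tested. Trappc9 and Peg13 were negatively related in females (r = -0.348, adjusted p = 0.0414), where Peg13 was at 0 in 30 of 48 embryos, so that the relation rests on few reads, and within F3 their r was 0.032. All 7 kept an unadjusted permutation p under 0.05 without the 2 farthest litters, and the differences between the sexes in these relations were not tested.

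Whether BaP given to the F0 females moved imprinted genes was examined for each dose against vehicle. With all generations combined, 0 of 29 imprinted genes passed the adjusted threshold of limma in any of the 8 comparisons (3 doses and their mean in each sex). Over all genes the share called was 0% in 7 of the 8 and 1.36% in females at 2 mg/kg-day. Within single generations 0 of 29 were called in any of 18 comparisons, in which the share over all genes was 0% in 16, 0.00733% in F1 females at 2 mg/kg-day and 0.145% in F2 males at 0.2 mg/kg-day. The comparisons of a sex share their vehicle embryos. At an unadjusted p under 0.05 there were 22 of 232 tests (9.48%, against 6.03% over all genes) with generations combined and 46 of 522 tests (8.81%, against 5.1%) within generations. On the recovered reads edgeR's quasi-likelihood test called 5 and its likelihood ratio test 7 with generations combined, and 2 and 4 within generations. All of these calls fell on Phlda2, Slc22a18, Dcn, Nnat and Sgce. The sexes did not differ in the effect of the mean dose in limma, with 0 of 29 called (0% of all genes) and 1 at an unadjusted p under 0.05, Dcn at -1.59 (SE 0.46).

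The smallest adjusted p-values of limma were those of Dlk1 with generations combined and of Grb10 within generations. In females at 2 mg/kg-day Dlk1 had a log2 fold change of -0.79 (SE 0.27, adjusted p = 0.0759). The vehicle females held stroma-rich D1388.3, whose Dlk1 of 12.8 normalized counts was the highest of any female (median of the others 2.79). In F2 males at 0.2 mg/kg-day Grb10 was at 2.64, 1.23 and 0.126 normalized counts, and in the 6 F2 vehicle males it ranged from 1.87 to 8.91 with a median of 3.57. The lowest 2 of the exposed males lay below every vehicle male, and the log2 fold change was -1.50 (SE 0.40, adjusted p = 0.0883). Grb10 passed the threshold without embryo D1040.1 (-2.04, adjusted p = 0.0111) or without vehicle embryo C4988.2 (-1.64, adjusted p = 0.0438), where the share over all genes rose from 0.145% to 1.86% and 1.02%. The Sertoli markers, which Grb10 followed in F2 males, summed to 465.8, 433 and 38.7 in the same 3 males and ranged from 444 to 1056 in the vehicle males. The male at 465.8 thus lay within the range of the vehicle males. With the marker level as a term, a fit chosen after the data had been seen, the log2 fold change of Grb10 was -0.17 (SE 0.35, adjusted p = 0.923). Whether the markers account for the lower Grb10 of these 3 males was not tested. The largest number in a single comparison was 10 genes at an unadjusted p under 0.05, in F3 males at 0.2 mg/kg-day, where 10.6% of all genes had one.

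In that F3 male group of 4 embryos, Phlda2 was at 775 normalized counts in D1390.5, 94.2 in its littermate D1390.1, 10.8 in D4021.2 and 2.77 in D1464.2, while the 6 F3 vehicle males lay between 3.10 and 8.11. Slc22a18 was at 25.6, 2.69, 1.14 and 0.63 in the same order, with vehicle males between 0.293 and 0.983. Plagl1 was at 7.04, 3.53, 2.10 and 1.77 in the same order, with vehicle males between 0.107 and 3.66. The littermates D1390.5 and D1390.1 were the highest of the 4 embryos for all 3 genes, and for Plagl1 D1390.1 lay within the vehicle males. D1390.5 reached the range of the females for Phlda2, whose lowest value in a female was 563. Its Mest level of 9.19 was the lowest of all 53 males. Its Sertoli markers summed to 63.2, where all males ranged from 38.7 to 2156 and all females from 11.8 to 114.3. The log2 fold change of the group was 2.77 (SE 0.75, adjusted p = 0.156) for Phlda2 and 1.75 (SE 0.47, adjusted p = 0.156) for Slc22a18 with limma. Without D1464.2, the embryo of lowest level, Phlda2 (3.98, adjusted p = 0.0015), Slc22a18 (2.29, adjusted p = 0.00913) and Ascl2 (-1.55, adjusted p = 0.0189) passed, as did 1.31% of all genes against 0% with it, and 2 of the 3 embryos left were littermates. Ascl2 was at 3.30, 4.37, 2.67 and 8.45 in D1390.5, D1390.1, D4021.2 and D1464.2, against 7.61 to 17.1 in the vehicle males.

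The edgeR calls in this group were made where the quasi-likelihood test called 0.0381% of all genes and the likelihood ratio test 0.693%. For Phlda2 the adjusted p was 0.00244 and 2.54e-08, and without D1390.5 it was 0.722 and 0.0124. For Slc22a18 it was 0.0186 and 2.04e-05, and without D1390.5 it was 0.722 and 0.477. Dcn was called by the likelihood ratio test (adjusted p = 0.00339), since it was at 0, 0, 0 and 0.126 in these males and at 0.369 to 44.3 in the vehicle males. Without the embryos of high stroma marker level that adjusted p was 0.0332, and the log2 fold change went from -7.46 to -4.64. Without D1390.5 the adjusted p was 0.288 and the log2 fold change -7.19. In males at 0.2 mg/kg-day over all generations, where 0.0602% and 0.0527% of all genes were called, Phlda2 had adjusted p-values of 0.00207 and 4.25e-05 and Slc22a18 of 0.0987 and 0.0161. All of them were 1 without D1390.5. The Phlda2 and Slc22a18 calls over all generations thus rested on that embryo.

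The other edgeR calls concerned Dcn, Nnat and Sgce. In females at 0.033 mg/kg-day, with 0.0752% and 0.211% of all genes called, Nnat had adjusted p-values of 0.0119 and 0.00247, Dcn of 0.0354 and 0.0276, and Sgce of 0.0759 and 0.0253. In F3 females at this dose the likelihood ratio test called Nnat (adjusted p = 0.0164, 0.167% of all genes), with values of 11.9, 3, 0.37 and 0.132 normalized counts against 0 to 1 in vehicle females. The highest of them was D3744.1, the embryo of highest stroma level. In males Dcn was called at 0.2 mg/kg-day (0.0482 and 0.0499, and 0.154 and 0.3 without D1390.5, where its log2 fold change hardly moved, from -3.44 to -3.33 and from -3.35 to -3.24) and for the mean dose (0.00662 and 0.0146, where 0.0301% and 0.00752% of all genes were called). The difference of the mean dose effect between the sexes was called for Dcn (0.000964 and 0.00113, with 0.0527% and 0.0301% of all genes). Without the embryos of high stroma marker level, all of the calls named in this paragraph ended, with adjusted p-values from 0.836 to 1. The quasi-likelihood log2 fold change went from 3.29 to 2.42 for Dcn and from 2.69 to 1.39 for Nnat in females at 0.033 mg/kg-day, and from -4.60 to -2.47 for the sex difference of Dcn. In males that of Dcn went from -3.44 to -1.58 at 0.2 mg/kg-day and from -2.63 to -0.79 for the mean dose. In F3 females that of Nnat went from 3.99 to 2.28, so that smaller changes of the same direction remained.

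Vehicle embryos were also compared between generations, in groups of 5 or 6. In 6 comparisons, 3 per sex, 0 of 29 imprinted genes passed with limma, 0% of all genes passed in each, and 4 of 174 tests (2.3%, against 2.58% over all genes) had an unadjusted p under 0.05. Of these, 3 fell in males of F3 against F1, which is 10.3% of the imprinted genes beside 4.61% of all genes. Both edgeR tests called 0 of 29 in each as well. The smallest p was that of Phlda2 in males, which was lower in F3 than in F1 by a log2 fold change of -1.46 (SE 0.57, adjusted p = 0.977). Phlda2 ranged from 8.27 to 41.3 normalized counts in the F1 vehicle males and from 3.10 to 8.11 in those of F3. These ranges of small groups nearly touched, and how often other genes separate in this way was not tested.

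Promoter sequences were read from RefSeq (GRCm38.p6), 250 bases before to 50 bases after the start of a transcript, as a description of what lies in front of these genes. Those of 4 genes without overlap between the vehicle sexes are printed, and Igf2, the remaining such gene, had 4 promoters of 2 to 24 CpG. They were found for 28 of the 36 genes, with 42 promoters. Their median number of CpG was 14.5, against 7 over 32851 promoters of all genes, and it was 17 for the maternally and 11 for the paternally expressed genes. The letters TGCCGC on either strand, known as the core of the element bound by ZFP57, were in 26.2% of the 42 promoters, 23.1% of the maternal and 32% of the paternal ones, against 11.6% of all. Overlapping windows of a gene were each counted, as for Mest at 30737800 and 30737803. These letters hold a CpG themselves, and whether the higher CpG number accounts for the higher share was not tested. Below, every CpG is in capitals. Phlda2 (chr7:143502475-143502774, minus strand) and Plagl1 (chr10:13090582-13090881, plus strand) had 26 CpG each, Mest (chr6:30737800-30738099, plus strand) had 17, and Slc22a18 (chr7:143473539-143473838, plus strand) had 2. The letters TGCCGC were found in those of Mest and Plagl1 and not in the windows of Phlda2 and Slc22a18. Of the 3 promoters of Mest, a window of those with most of these letters is shown, and the one at chr6:30733256-30733555 had 8 CpG and lacked them. The 2 female-high neighbours of chromosome 7 thus had promoters of very different CpG content.
Phlda2: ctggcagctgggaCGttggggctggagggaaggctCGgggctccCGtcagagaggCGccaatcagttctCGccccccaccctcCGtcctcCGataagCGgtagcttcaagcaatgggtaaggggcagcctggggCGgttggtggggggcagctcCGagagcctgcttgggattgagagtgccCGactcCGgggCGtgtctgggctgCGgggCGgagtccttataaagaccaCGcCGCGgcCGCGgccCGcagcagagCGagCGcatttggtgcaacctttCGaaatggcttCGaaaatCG
Slc22a18: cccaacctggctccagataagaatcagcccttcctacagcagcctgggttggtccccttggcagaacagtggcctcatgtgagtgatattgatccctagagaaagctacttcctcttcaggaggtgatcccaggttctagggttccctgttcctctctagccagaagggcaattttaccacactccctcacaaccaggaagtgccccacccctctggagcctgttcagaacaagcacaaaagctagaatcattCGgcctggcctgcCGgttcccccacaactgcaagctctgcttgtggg
Plagl1: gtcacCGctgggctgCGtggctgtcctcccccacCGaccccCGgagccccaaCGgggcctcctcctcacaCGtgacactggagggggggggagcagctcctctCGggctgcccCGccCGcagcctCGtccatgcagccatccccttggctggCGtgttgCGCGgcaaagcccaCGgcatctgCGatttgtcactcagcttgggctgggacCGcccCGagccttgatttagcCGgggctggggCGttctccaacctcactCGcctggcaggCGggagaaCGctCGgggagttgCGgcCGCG
Mest: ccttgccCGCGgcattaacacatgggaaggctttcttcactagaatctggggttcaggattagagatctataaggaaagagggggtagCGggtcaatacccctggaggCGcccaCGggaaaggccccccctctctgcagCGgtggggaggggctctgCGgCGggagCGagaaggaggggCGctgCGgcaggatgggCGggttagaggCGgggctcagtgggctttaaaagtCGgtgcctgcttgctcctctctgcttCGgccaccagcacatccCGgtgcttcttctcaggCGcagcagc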

How the data were processed

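RNA of EGFP-positive cells was measured in 1 library per embryo. According to the authors, reads were trimmed with Trim Galore, aligned to mm10 with STAR, counted on exons with Rsubread and normalized by edgeR's TMM, and the authors deposited the resulting signal of each gene as a normalized count. Whole reads were recovered from these counts in 99 embryos, and 2 F3 embryos, male D4190.1 and female D1388.3, were left out of tests on reads and of the depth term. Tests took in the genes whose mean reached 0.5 and used limma 3.58.1 (trend) in R 4.3.3 on log2(value + 0.5), and p was adjusted over all genes within each comparison (Benjamini-Hochberg, threshold 0.05). Fits held 8 sex-by-dose groups over all generations, the groups of 1 generation, or 24 groups. The scripts were tested on simulated data. Alternatives were edgeR 4.0.16 quasi-likelihood and likelihood ratio tests (the latter is the study's own), other added values, filters and scaling, terms for depth, stroma, Sertoli markers and generation, the dam as a block, and left-out embryos. Embryos of a dam share a litter, and the correlation within dams was 0.262 over all generations, 0.382 in F1, 0.0532 in F2 and 0.225 in F3. Correlations averaged littermates of a sex and used 100000 permutations (NumPy 2.4.6, SciPy 1.17.1). Full values are given for genes called in any comparison and for the 5 highest and 5 lowest per kb, and of the further lists the 5 smallest p-values are named. Gene positions and exon lengths come from GENCODE vM21. The genes and lists were chosen with earlier results of these data known.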

Additional observations from a re-analysis of the deposited data

Results flagged for a closer look

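The highest and lowest embryo were compared with the others by Dixon's gap rule in 36 sets of values, each of 1 gene in 1 group of at least 4 embryos. In 12 sets, from 7 groups of embryos, an embryo lay far from the rest, and D1388.1 and D1390.5 did so in 2 sets each. For normally distributed values chance flags about 1 in 20 such sets. The rule was applied to normalized counts without a log, so that rate need not hold here.

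Phlda2 in F2 vehicle males was 33.3 normalized counts in D3133.5 and 3.23 to 9.97 in the others. Slc22a18 in F2 vehicle females was 33.5 in C4988.3, the lowest, and 44.7 to 51.2 in the others, and in F3 vehicle females it was 65.6 in D3526.1 and 36.1 to 44.9 in the others. Plagl1 in F1 vehicle females was 53.5 in C4232.9 and 20.6 to 29.7 in the others. In vehicle males Plagl1 was 12.8 in F1 embryo C3774.3 (others 0.873 to 1.73), 2.84 in F2 embryo C4992.2 (0.779 to 1.55) and 3.66 in F3 embryo D3402.3 (0.107 to 0.888). In F3 vehicle males, D1388.1 was the highest for Igf2 at 4.57 (0.564 to 1.49) and for Dcn at 44.3 (0.369 to 2.63). In F3 males of the middle dose, D1390.5 was the highest for Phlda2 at 775 (2.77 to 94.2) and for Slc22a18 at 25.6 (0.63 to 2.69), and D1464.2 for Dcn at 0.126, which is 1 read. With 0 in the others any read would stand apart there, so this set says nothing of that embryo. The causes were not tested.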

How the results depend on the processing

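The count of 18 genes that differed between vehicle sexes was 14 to 21 under the other settings and 17 to 19 when each vehicle embryo was left out in turn. The settings differ in which genes were tested. With a minimum mean of 5 the called genes Igf2, Sgce, Dlk1 and Nnat were not tested, and without a filter Rian, Zim1 and Peg13 were. The count of 37 in single generations was 25 to 42, and 33 to 40 with 1 embryo left out. With dam as a replicate block the counts were 19 and 42, Peg3 was gained over all generations (0.28, adjusted p = 0.0409), no call was lost and no dose call was made. In F1 it gained Ascl2, H19, Nnat, Usp29 and Zdbf2. With the Sertoli marker term the direction turned for 9 genes. Of these Nnat (-0.14), Sgce (-2.12), Grb10 (-2.19) and Blcap (0.81) were called with or without the term, and Meg3, Dcn, Inpp5f, Nap1l5 and Impact in neither fit. This term and the sets without D1390.5 in the read-based tests, without high stroma embryos or without deep F1 libraries were chosen after the data had been seen. Dose calls in single generations were 0 with limma, 0 to 3 with 1 embryo left out, 2 with the quasi-likelihood and 4 with the likelihood ratio test, 2 with the latter without D1390.5, and 1 and 3 with these tests without the high stroma embryos. Over all generations they were 0 with limma, 5 and 7 with these tests, 3 and 4 without D1390.5, and 1 and 1 without the high stroma embryos. The sex by exposure term had 1 call with each of these tests, and 1 with each without D1390.5. The cause was not tested. Leaving out D1040.1 or C4988.2 gave 1 dose call each, and leaving out D1464.2 gave 3. Values near 1 normalized count rest on few reads in the shallow libraries.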
